A study of Mus musculus with 6 samples.

Results

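The genes of DNA repair and meiotic recombination were followed in oocytes of naturally aged mice that drank aminophylline or plain water. The set held 42 genes, found by symbol in the deposited expression table, and 41 of them were among its 25631 genes. Spo11, which encodes the enzyme that opens the programmed breaks of meiosis, was not analysed here. All 6 libraries came from ICR mice 14 months old. The aminophylline group (labelled Ami, n = 3 libraries) received 4 mM aminophylline, a theophylline derivative that inhibits phosphodiesterases, in the drinking water for 1 week and then water only for 3 weeks, and the control group (labelled Aged and untreated, n = 3 libraries) received water without the drug. Oocytes were taken by puncturing large antral follicles after an injection of eCG, the gonadotropin that drives follicle growth, and how many mice or oocytes entered each library is not given in the sources used here, so every p-value below measures the spread between these libraries.

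A double-strand break is sensed by the MRE11-RAD50-NBN complex and the kinases ATM and ATR, and is then either rejoined end to end or copied from an intact homologous sequence with the help of BRCA1, BRCA2 and their partners. In meiosis the cell breaks its own chromosomes on purpose, and DMC1, the synaptonemal complex and the MSH4-MSH5 pair turn some of those breaks into crossovers. These events take place in the fetal ovary, long before the follicle grows, while a fully grown oocyte carries a store of transcripts and still has to repair breaks, cross-links and damaged bases.

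The promoters shown here are those of the 5 genes of the meiotic chromosome axis and synaptonemal complex (Sycp3, Hormad1, Sycp1, Sycp2 and Hormad2) and of Bard1, the member whose aminophylline libraries all lay above the controls. Each is the stretch of 250 bases before the outermost start site that RefSeq lists for the gene on build GRCm38.p6, written 5′ to 3′ on the gene's own strand: chr10:88459337-88459586 on the plus strand, chr3:95559427-95559676 on the plus strand, chr3:102936101-102936350 on the minus strand, chr2:178407659-178407908 on the minus strand, chr11:4441083-4441332 on the minus strand and chr1:71102973-71103222 on the minus strand. Capitals mark TTCCCGC, the core of the site of E2F factors including E2F6, in either orientation, and the E-box CACGTG, the palindrome bound by many basic helix-loop-helix factors.
Sycp3: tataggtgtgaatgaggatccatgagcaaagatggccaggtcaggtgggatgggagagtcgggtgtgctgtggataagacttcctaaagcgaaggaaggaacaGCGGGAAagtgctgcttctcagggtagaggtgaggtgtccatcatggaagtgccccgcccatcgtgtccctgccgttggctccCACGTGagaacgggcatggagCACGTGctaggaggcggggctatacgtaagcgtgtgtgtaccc
Hormad1: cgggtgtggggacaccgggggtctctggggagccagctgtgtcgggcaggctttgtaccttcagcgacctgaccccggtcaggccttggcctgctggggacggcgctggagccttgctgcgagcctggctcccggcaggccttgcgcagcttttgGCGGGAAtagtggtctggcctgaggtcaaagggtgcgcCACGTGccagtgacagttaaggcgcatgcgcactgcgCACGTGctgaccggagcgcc
Sycp1: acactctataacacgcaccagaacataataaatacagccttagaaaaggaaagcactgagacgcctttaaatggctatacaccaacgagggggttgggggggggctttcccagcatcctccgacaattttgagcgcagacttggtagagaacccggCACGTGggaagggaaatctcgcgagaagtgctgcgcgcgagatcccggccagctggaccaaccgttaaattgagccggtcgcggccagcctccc
Sycp2: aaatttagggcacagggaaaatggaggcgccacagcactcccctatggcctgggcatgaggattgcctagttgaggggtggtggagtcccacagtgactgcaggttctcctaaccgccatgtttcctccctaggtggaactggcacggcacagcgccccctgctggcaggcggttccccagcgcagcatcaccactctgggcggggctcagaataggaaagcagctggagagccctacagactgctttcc
Hormad2: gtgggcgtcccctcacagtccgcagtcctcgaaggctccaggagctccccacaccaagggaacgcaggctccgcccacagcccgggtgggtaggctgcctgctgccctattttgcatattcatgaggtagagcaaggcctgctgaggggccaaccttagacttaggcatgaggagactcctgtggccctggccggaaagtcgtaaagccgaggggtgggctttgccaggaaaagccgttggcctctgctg
Bard1: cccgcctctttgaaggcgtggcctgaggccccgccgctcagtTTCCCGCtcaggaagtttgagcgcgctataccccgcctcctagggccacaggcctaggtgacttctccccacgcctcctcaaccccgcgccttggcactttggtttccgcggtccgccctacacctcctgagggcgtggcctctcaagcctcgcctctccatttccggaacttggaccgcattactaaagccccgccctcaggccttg
The Sycp3 and Hormad1 windows hold both motifs, with 2 E-boxes each, the Sycp1 window holds the E-box, the Bard1 window holds TTCCCGC, and the Sycp2 and Hormad2 windows hold neither. The gene span that RefSeq gives on the same build reaches upstream of the start site used, by 169 bases for Bard1, 118 for Sycp2 and 116 for Hormad2. It reached into 24 of the 37 member windows and past the whole window for 7, Msh4 among them, whose promoter is therefore not shown. Over both strands, TTCCCGC stood in 8 of the 37 member promoters that matched RefSeq (21.6%) and in 5.9% of 14030 promoters of coding genes and 7.46% of 7181 promoters of genes tested here. Of these 8, the windows of Brca2, Rad52, Msh5, Fancm and Xrcc6 lay wholly inside the gene span, which leaves Bard1, Hormad1 and Sycp3. The shares were not recounted without such windows, so the excess of TTCCCGC cannot be placed upstream of the genes. The E-box stood in 8 of the 37 (21.6%), against 7.51% of coding genes and 8.73% of tested genes. Both motifs together stood in 2 of the 37 (5.41%), against 0.492% of coding genes and 0.529% of tested genes. The GC box GGGCGG was found in 26 of the 37 (70.3%, against 50% of coding genes and 57.1% of tested genes). In the same order, CCAAT was found in 18 (48.6%, against 36.8% and 38.1%) and TATAAA in 1 (2.7%, against 9.34% and 6.92%). The member promoters also had a higher GC content, with a median of 61.6% and a range of 43.6% to 70.8%, than coding genes, whose median was 57.6%, and the motif shares were not adjusted for it. These matches describe letters in a window and are not binding sites.

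The oocyte libraries carried most members at low to moderate levels, in FPKM (fragments per kilobase of transcript, scaled to the mapped reads of the library). The mean over the 6 libraries was at least 50 FPKM for 2 members, 10 to 50 for 8, 1 to 10 for 25 and under 1 for 6. Of the 42 genes, 35 passed the filter for testing (3 or more of the 6 libraries at 1 FPKM or above), and their median of 4.96 FPKM lay below the 6.62 FPKM of all 10340 tested genes, with 14 of the 35 above it. The 2 most abundant were Xrcc5, which encodes the KU80 subunit that caps broken ends, and Apex1, which encodes the endonuclease that cuts abasic sites. Those under 1 FPKM on average were Atm, Atr, Msh5, Mlh3, Hormad1 and Fanca, which include the genes of the damage kinases ATM and ATR.

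**Figure D1:**
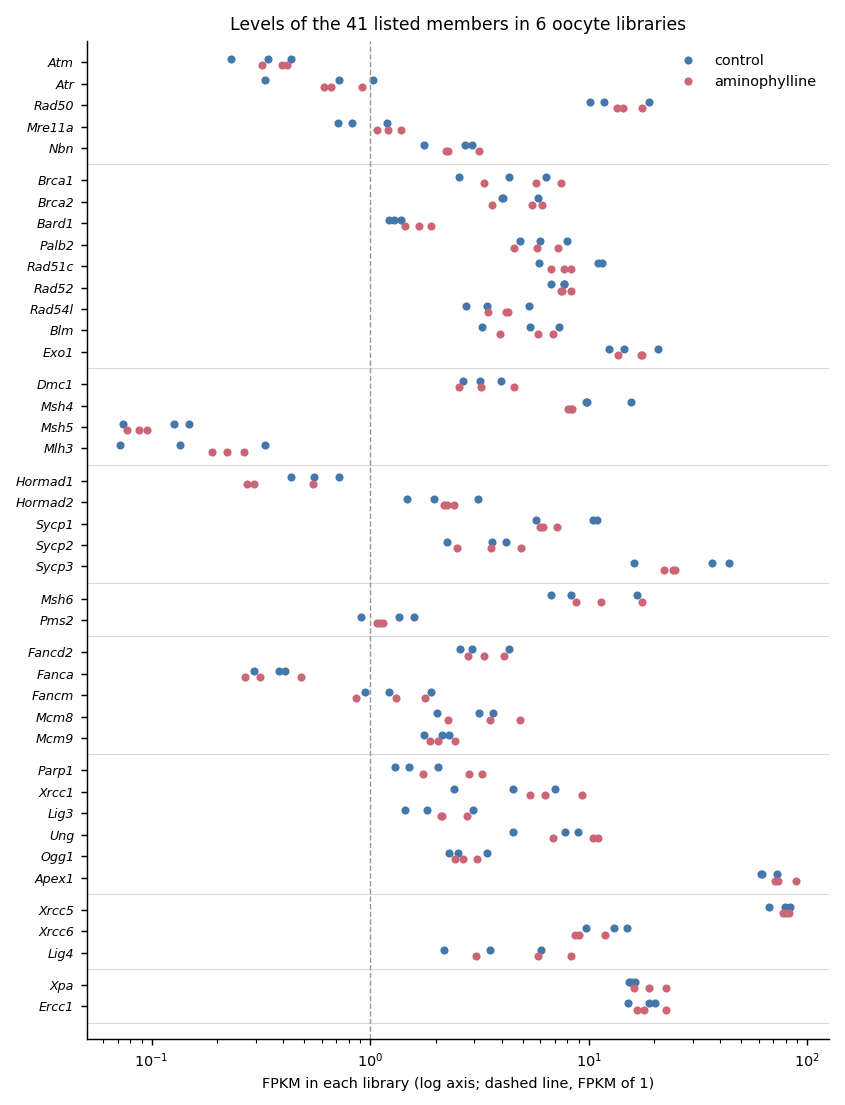
FPKM (log axis) of the 41 listed members in each of the 3 control and 3 aminophylline libraries, 1 point per library, ordered by role and separated by lines; the dashed line marks an FPKM of 1. Levels run from 0.0721 FPKM for Mlh3 in control 1 to 88.5 FPKM for Apex1 in aminophylline 2, a far wider span than any difference between the groups.

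The comparison of aminophylline with control asked whether these transcripts differed after treatment, and none did beyond the spread between libraries. By limma on log2(FPKM + 1), 0 of the 35 tested members passed an adjusted p of 0.05 (smallest adjusted p = 0.694), as did 0% of all 10340 tested genes. At an unadjusted p under 0.05 the count was also 0 of 35, against 7.25% of all tested genes (4.41% higher and 2.84% lower), and voom on the recovered read counts called 0 members as well. Log2 fold changes ran from -0.43 for Msh4 to 0.56 for Xrcc1, with 27 members above 0 and 8 below, and their median was 0.07, against 0.10 over all tested genes, of which 64.8% were above 0. With the libraries centred on their medians the all-gene median was 0.01, the members' median was -0.01 and 15 of the 35 were above 0, so the excess of positive values was not seen under that scaling.

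The 95% interval of the difference contained 0 for all 35 members. On the scale of FPKM + 1 it lay inside a 2-fold change in either direction for 33 members, and for Xrcc1 and Lig4 it reached further. The added 1 narrows the intervals of low genes, so the limits were also carried to FPKM from the control level. There they lay inside 1.5-fold for 4 members, inside 2-fold for 23 and inside 3-fold for all 35, with the highest upper limit at 2.72-fold for Xrcc1 and the lowest lower limit at 0.457-fold for Pms2. With 3 libraries against 3, an exact two-sided permutation test of a single gene cannot go below p = 0.1.

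**Figure D2:**
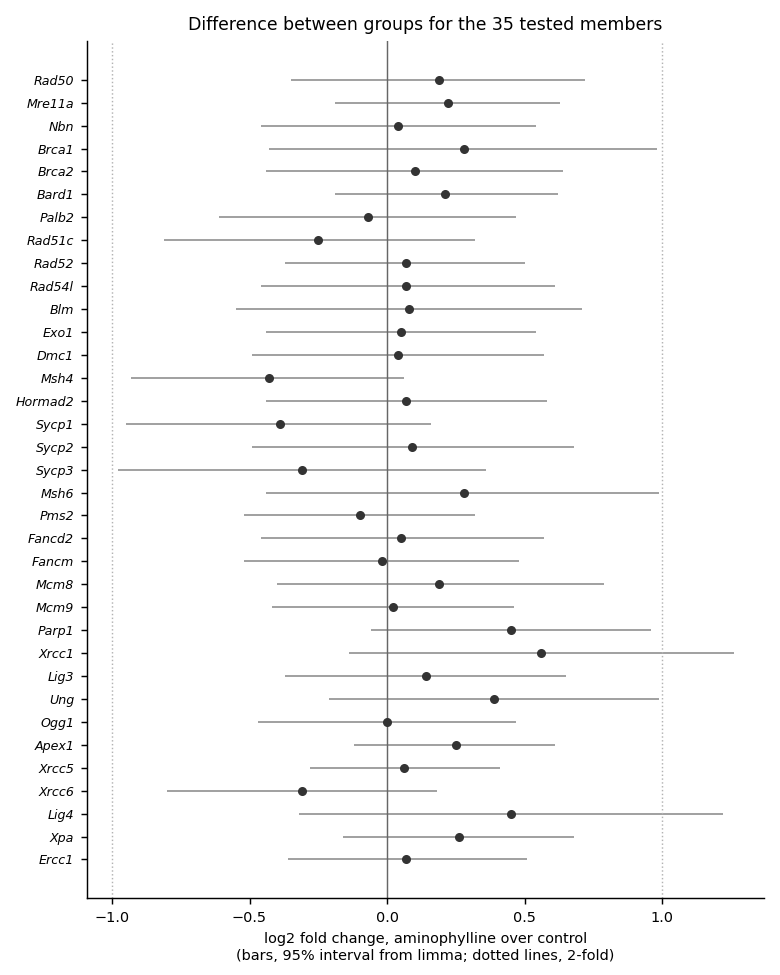
Log2 fold change (aminophylline over control, on the log2(FPKM + 1) scale) of the 35 tested members, in the order of their roles, with 95% intervals from limma as bars. Every interval crosses 0, and those of Xrcc1 and Lig4 alone reach past the dotted lines at 2-fold of FPKM + 1.

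The 2 members with groups that did not overlap were both small differences. Msh4, whose protein pairs with MSH5 to hold crossover intermediates, lies on chromosome 3 from 153857141 to 153906138. Its level was 15.7, 9.74 and 9.86 FPKM in the control libraries and 8.07, 8.31 and 8.39 FPKM in the aminophylline libraries. Control 1 stood above the rest, and the lowest control exceeded the highest aminophylline library by little. The log2 fold change was -0.43 ± 0.22 (SE, n = 3 per group), with an unadjusted p = 0.081 and an adjusted p = 0.696 in limma. Without control 1 it was -0.22. With the replicate number as a block, the unadjusted p was 0.049 and the adjusted p 0.349.

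Control 1 was also the library with the most macrophage transcripts. Of 11 listed macrophage markers, C1qb was at 72.3 to 99.8 FPKM in all 6 libraries and, unlike the rest, was lowest in control 1. The other 10 summed to 167 FPKM in control 1 and to 1.28 to 2.41 FPKM in the other 5 libraries, and all 10 were highest in control 1, although 4 of the 11 stayed under 1 FPKM everywhere. Control 1 held the highest value of Msh4, Sycp3 and Sycp1 and the lowest of Xrcc1 and Ung, and the part of macrophage RNA in these values was not tested. Of the 11 listed granulosa and cumulus markers, 8 were under 1 FPKM in every library. The others were Cyp19a1 at 7.37 to 15.7 FPKM, highest in control 1, Nr5a2 at 4.43 to 8.53 FPKM and Inha at 0.417 to 1.66 FPKM. The oocyte markers summed to 10947 to 16521 FPKM, lowest in control 1. Single markers were mixed: control 1 was the lowest library for Gdf9, Zp3, Nlrp5, Mos and Npm2. It was not the lowest for Bmp15, Zp1, Zp2, Ooep, Ddx4, Dazl and Oosp1. In bulk oocyte pools, fewer cells of a type and less RNA per cell cannot be told apart.

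Bard1, the partner that stabilises BRCA1, lies on chromosome 1 from 71027535 to 71103141. It stood at 1.29, 1.22 and 1.38 FPKM in control and at 1.44, 1.67 and 1.90 FPKM in aminophylline libraries. All 3 treated libraries were above all 3 controls, at 97 to 326 reads per library. The log2 fold change was 0.21 ± 0.19 (SE, n = 3 per group; limma adjusted p = 0.768). Groups that did not overlap were thus found for 1 member higher (2.86% of 35) and 1 lower (2.86%), against 7.51% and 4.96% of all tested genes.

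In base excision and single-strand break repair the median log2 fold change was 0.32, and no value of the 6 tested members was below 0, as was also so for the 3 break sensors and the 2 nucleotide excision genes. None of the 6 passed the test, and 5 were positive with the libraries centred on their medians and 4 without control 2. Parp1, the sensor that marks nicks with poly(ADP-ribose), stood at 1.5, 1.30 and 2.05 FPKM in control and 1.74, 2.82 and 3.25 FPKM in aminophylline libraries. The groups overlapped. Its log2 fold change was 0.45 ± 0.23 (SE), and its limma adjusted p = 0.694 was the smallest of the set. Xrcc1, the scaffold that brings ligase 3 to the nick, gave 2.41, 4.52 and 7.03 FPKM in control and 6.30, 5.37 and 9.37 FPKM in aminophylline libraries. Control 3 lay above all treated libraries but aminophylline 3, and the log2 fold change was 0.56 ± 0.32 (SE; limma adjusted p = 0.721). Ung, which removes uracil from DNA, was at 4.49, 7.78 and 8.92 FPKM in control and at 6.88, 10.5 and 11.0 FPKM in aminophylline libraries (limma adjusted p = 0.728). Its log2 fold change was 0.39, and without control 1, the lowest library for both genes, the values were 0.14 for Ung and 0.24 for Xrcc1. Lig3, the ligase itself, and Ogg1, the glycosylase for oxidised guanine, lay between 1.45 and 3.42 FPKM in all libraries, with log2 fold changes of 0.14 and 0.00. Of the Lig3 exon bases, 27.9% lie opposite exons of Rffl, which was listed at 11.6 to 16 FPKM.

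With the replicate number as a block, 3 members passed the unadjusted threshold (8.57% of 35, against 14.2% of all tested genes), namely Xrcc1, Parp1 and Msh4. Their adjusted p in the blocked limma fit was 0.257 for Xrcc1, 0.318 for Parp1 and 0.349 for Msh4. At an adjusted p under 0.05 the blocked limma fit called 0 of the 35, against 0.455% of all tested genes.

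Apex1 (chromosome 14 from 50924949 to 50927188) was measured at 72.7, 61.3 and 62.2 FPKM in control and 73.6, 88.5 and 71.5 FPKM in aminophylline libraries. The groups overlapped between 71.5 and 72.7, and the log2 fold change was 0.25 ± 0.16 (SE; limma adjusted p = 0.728). Of its exon bases, 70.8% lie opposite exons of Pip4p1, listed at 2.94 to 8.31 FPKM, and whether the counting used strand is not given in the sources used here.

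End joining showed unequal levels of its parts. Xrcc5 (chromosome 1 from 72307417 to 72394953) was at 78.7, 67.1 and 83.7 FPKM in control and at 82.2, 79.8 and 77.2 FPKM in aminophylline libraries, among the steadiest of the set. Its log2 fold change was 0.06 ± 0.16 (SE, limma adjusted p = 0.925), -0.02 with the libraries centred on their medians. Xrcc6, which encodes its partner KU70, was at 13.0, 9.74 and 15.0 FPKM in control and at 8.66, 9.07 and 11.9 FPKM in aminophylline libraries. These values overlapped, with a log2 fold change of -0.31 ± 0.22 (SE; limma adjusted p = 0.733). The 2 proteins act as a heterodimer, yet the Xrcc5 transcript exceeded that of Xrcc6 in every library, by 5.59 to 9.49 times per length, with a mean ratio of 6.18 ± 0.658 (SD, n = 3) in control and 8.26 ± 1.57 (SD, n = 3) in aminophylline. The deposited FPKM use a length of 6058 bases for Xrcc6, against 3319 exon bases in the GENCODE annotation. Rescaled to the GENCODE exon bases of both genes, without recounting reads, the ratio was 3.48 to 5.9. Of the Xrcc6 exon bases, 8.5% lie opposite exons of Desi1, whose level was not read here. Lig4, the ligase that seals the joined ends, ranged from 2.17 to 6.02 FPKM in control and from 3.05 to 8.29 FPKM in aminophylline libraries (log2 fold change 0.45 ± 0.35, SE; limma adjusted p = 0.757). Single libraries moved this value, which was 0.17 without control 2, 0.75 without control 3, 0.78 without aminophylline 1 and 0.18 without aminophylline 3.

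The transcripts of the meiotic chromosome axis and synaptonemal complex were still present in these oocytes. Sycp3 (chromosome 10 from 88459587 to 88473236), which encodes the lateral element on which the chromosome loops are anchored, was the third most abundant member. It stood at 43.7, 16.1 and 36.6 FPKM in control and 24.7, 24.2 and 22.2 FPKM in aminophylline libraries. The control libraries fell on both sides of the treated ones, which lay close together. The log2 fold change was -0.31 ± 0.30 (SE; limma adjusted p = 0.788), and it was -0.73 without control 2 (unadjusted p = 0.00164, limma adjusted p = 0.102) and -0.04 without control 1. Exons of Chpt1, listed at 0.258 to 0.789 FPKM, lie opposite 52.2% of the Sycp3 exon bases. The part of Chpt1 reads in the Sycp3 values was not tested.

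Sycp1, the zipper-like protein that bridges the paired axes, followed the same order of libraries in the controls. It was at 10.9, 5.77 and 10.5 FPKM in control and at 7.19, 5.98 and 6.17 FPKM in aminophylline libraries. Here too control 2 lay below all treated libraries and the other two controls above them, and the log2 fold change was -0.39 ± 0.25 (SE; limma adjusted p = 0.728). It was -0.66 without control 2 and -0.25 without control 1. Sycp2, a second lateral-element protein, was at 3.62, 2.25 and 4.17 FPKM in control and at 2.49, 3.59 and 4.89 FPKM in aminophylline libraries. Its log2 fold change was 0.09. Hormad2, which marks axes that have not yet paired, was at 1.97, 1.47 and 3.13 FPKM in control libraries. In aminophylline libraries Hormad2 was at 2.18, 2.24 and 2.41 FPKM, and it differed by 0.07 on the log2 scale. Its relative Hormad1 was under the filter, with 15 to 44 reads in the control and 16 to 26 reads in the aminophylline libraries.

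Among the genes of meiotic breaks and crossovers, Dmc1, the meiotic recombinase, was at 3.97, 2.67 and 3.17 FPKM in control and at 4.53, 2.54 and 3.21 FPKM in aminophylline libraries. The groups covered the same range, and the log2 fold change of 0.04 ± 0.24 (SE; limma adjusted p = 0.974) was -0.04 after median centring. Msh5 and Mlh3 were barely detected, with 10 to 21 reads and 11 to 61 reads per library. As MSH4 and MSH5 also work as a heterodimer, their transcript ratio was taken. Msh4 exceeded Msh5 by 65.2 to 212 times per length, or by 36.5 to 119 times when rescaled to GENCODE exon bases without recounting reads. The few Msh5 reads make either ratio imprecise.

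Homologous recombination held 9 members, all tested, with 7 values above 0 and 2 below and a median log2 fold change of 0.07. With the libraries centred on their medians, 3 were above 0 and 6 below. Exo1, which resects the broken end, was the most abundant of them at 12.4 to 20.7 FPKM in control and 13.6 to 17.6 FPKM in aminophylline libraries. Brca1, Brca2 and Palb2, whose proteins act together in this repair, lay between 2.56 and 7.93 FPKM over all libraries, with log2 fold changes of 0.28, 0.10 and -0.07. Rad51c, which also acts in this repair, was at 5.94 to 11.5 FPKM in control and 6.70 to 8.32 FPKM in aminophylline libraries (log2 fold change -0.25, limma adjusted p = 0.795). Rad52, Rad54l and the helicase gene Blm differed by 0.07, 0.07 and 0.08 on the log2 scale, each well inside its standard error of 0.20 to 0.29.

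The break sensors were uneven in level. Rad50 ran from 10.1 to 18.8 FPKM, while its partners Mre11a and Nbn ran from 0.713 to 1.38 and from 1.76 to 3.16 FPKM over the 6 libraries. Rad50 exceeded Mre11a by 11.1 to 16.4 times in each library, with a mean ratio of 14.8 ± 2.26 (SD, n = 3) in control and 12.4 ± 1.12 (SD, n = 3) in aminophylline. This also depended on length, as the FPKM of Mre11a use 11133 bases against 5763 exon bases in GENCODE. Rescaled to GENCODE exon bases, without recounting reads, the ratio was 5.76 to 8.5. The FPKM of Nbn use 7158 bases against 2533 exon bases in GENCODE. The Rad50 to Nbn ratio, 3.7 to 6.64 from the deposited FPKM, would thus be lower if rescaled in the same way and was not recomputed. Atm was at 0.230 to 0.436 FPKM and Atr at 0.331 to 1.03 FPKM over all libraries, and neither was tested.

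**Figure D3:**
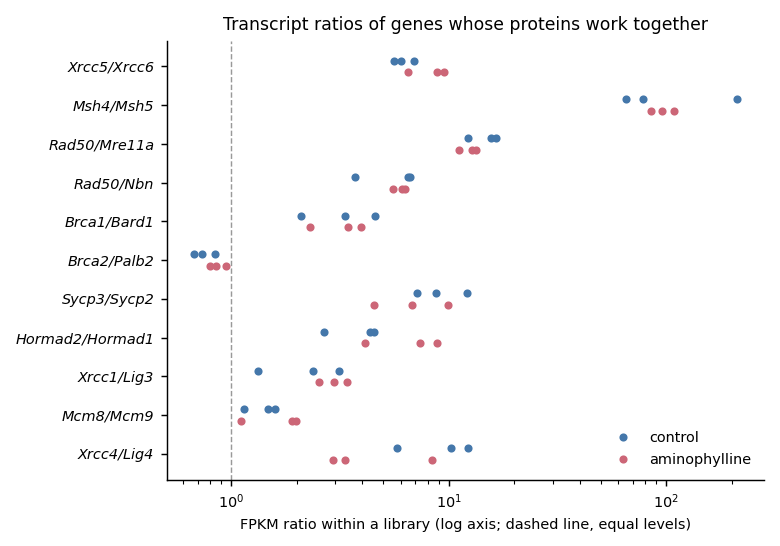
FPKM ratio within each library (log axis) for 11 pairs of genes whose proteins work together, 1 point per library and group; the dashed line marks equal levels. The pairs were chosen after their values had been seen. Brca2 over Palb2 stays near equal levels (0.674 to 0.948), while the other pairs are above 1 in all 6 libraries. Msh4 over Msh5 and Rad50 over Mre11a are the highest. Xrcc5 over Xrcc6 (5.59 to 9.49) overlaps Sycp3 over Sycp2 (4.54 to 12.1) and Xrcc4 over Lig4 (2.94 to 12.3). Ratios are from the deposited FPKM, and those of Msh4, Rad50 to Mre11a and Xrcc5 are lower when rescaled to GENCODE exon bases.

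The remaining roles showed small differences. Msh6, which recognises mismatches, was at 6.75 to 16.6 FPKM in control and 8.79 to 17.5 FPKM in aminophylline libraries (log2 fold change 0.28), and Pms2, which acts after a mismatch is found, at 0.908 to 1.58 and 1.07 to 1.14 FPKM (-0.10). In the Fanconi pathway, which unhooks cross-linked strands, Fancd2 and Fancm differed by 0.05 and -0.02, and Fanca was under the filter. The helicase genes Mcm8 and Mcm9 differed by 0.19 and 0.02, and the Mcm9 level of 1.77 to 2.44 FPKM has to be read with 17% of its exon bases opposite the far more abundant Asf1a (75.3 to 106 FPKM). Xpa and Ercc1, of nucleotide excision repair, were at 15.2 to 22.6 FPKM throughout, with log2 fold changes of 0.26 and 0.07.

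The members varied together between libraries of the same group. Control 3 and aminophylline 3 each held the highest value of 14 of the 35 tested members, and control 2 held the lowest value of 23. The median deviation of the members from their own 6-library mean was -0.25 in control 2 and 0.25 in control 3 on the log2 scale. Over all tested genes it was -0.11 and 0.11. For the other genes of the same pathways, described below, it was -0.19 and 0.17, so this swing was not particular to the members. Summed over the set, the level was 386, 307 and 421 FPKM in control and 364, 392 and 408 FPKM in aminophylline libraries, so the control libraries held both the lowest and the highest sum. Control 2 was also the shallowest library, with 14112341 recovered reads against 24773273 to 33641283 in the others. Its depth was not tested as a source of its low values.

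**Figure D4:**
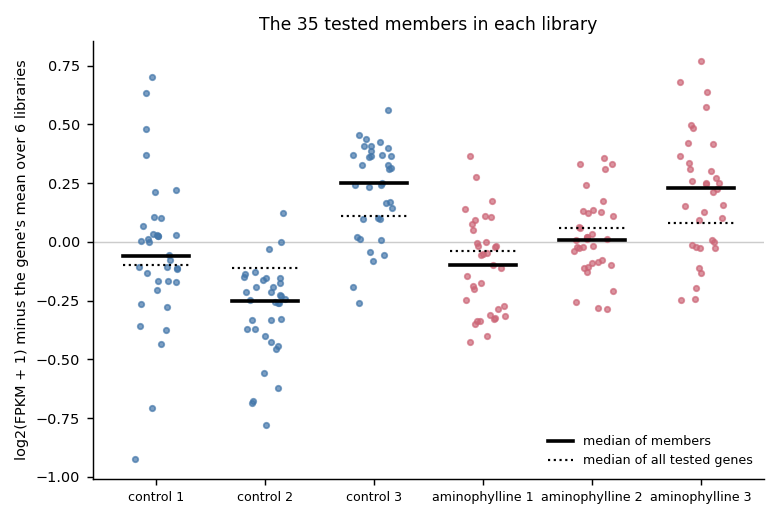
Deviation of each of the 35 tested members from its mean over the 6 libraries, in log2(FPKM + 1), by library; the solid bar is the median of the members and the dotted bar that of all tested genes. Control 2 is lowest (-0.25) and control 3 highest (0.25), and aminophylline 3 (0.23) lies next to control 3.

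The control libraries differed more among themselves than the treated ones. The median SD of the members was 0.31 in control and 0.21 in aminophylline on the log2 scale, and it was wider in control for 24 of the 35 (68.6%), close to the 74.7% of all tested genes. Leaving out control 3, 4 members were higher at an unadjusted p under 0.05 (Msh6, Xrcc1, Lig4 and Parp1) and 1 was lower (Msh4), 14.3% of the 35 and also 14.3% of all tested genes in that fit. Without control 2, 4 were lower (Rad51c, Msh4, Sycp1 and Sycp3) and 0 higher, 11.4% against 15.6% of all tested genes. In both cases 0 passed the adjusted p in limma.

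Other genes of the same pathways, 109 in 7 lists and 86 of them tested, gave the same picture at the adjusted threshold. By limma 0 of 86 passed (smallest adjusted p = 0.661), 7 had an unadjusted p under 0.05 (8.14%, close to the 7.25% of all tested genes) and the median log2 fold change was 0.04. Of these 7, 2 were higher and 5 lower. Mus81, the nuclease that cuts stalled forks and some crossover intermediates, was at 24.6, 36.9 and 47.6 FPKM in control and 57.1, 58.6 and 54.8 FPKM in aminophylline libraries (log2 fold change 0.68 ± 0.22, SE; adjusted p = 0.664). Fance, a subunit of the Fanconi core, had a log2 fold change of 0.58 (adjusted p = 0.682). All 3 treated libraries lay above all controls for both genes, and control 1 was the lowest library of both.

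The 5 lower genes came from 4 lists. Neil3, a glycosylase for oxidised bases and abasic cross-links, was at 269, 142 and 199 FPKM in control and 128, 118 and 126 FPKM in aminophylline libraries (log2 fold change -0.66 ± 0.21, SE; adjusted p = 0.664). Gtf2h2 and Gtf2h3, subunits of the TFIIH complex that opens DNA around a lesion, had log2 fold changes of -0.57 and -0.49 (adjusted p = 0.661 and 0.682). Mei4, needed for meiotic break formation, had -0.60, and Xrcc4, the partner of LIG4, had -0.47 (adjusted p = 0.682 for both). In each of the 5 the groups did not overlap, and control 1 was the highest library for Neil3, Gtf2h2, Mei4 and Xrcc4. Without control 1 the values were -0.43 for Neil3, -0.42 for Gtf2h2, -0.53 for Gtf2h3, -0.36 for Mei4, -0.39 for Xrcc4, 0.43 for Mus81 and 0.39 for Fance, and the part of its macrophage RNA in the differences was not tested. The lists they came from held no more than 2 such genes each: 1 of 24 tested for homologous recombination, 1 of 15 for meiotic recombination, 0 of 5 for mismatch repair, 1 of 8 for the Fanconi pathway, 1 of 13 for base excision, 1 of 6 for end joining and 2 of 16 for nucleotide excision.

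Groups that did not overlap were found for 4 of the 86 higher (4.65%) and 10 lower (11.6%), against 7.51% and 4.96% of all tested genes. With the replicate number as a block, 13 of the 86 had an unadjusted p under 0.05 (15.1%, against 14.2% of all tested genes) and 0 an adjusted one. XRCC4 and LIG4 form a complex, and the Xrcc4 to Lig4 transcript ratio was 5.75 to 12.3 in control and 2.94 to 8.34 in aminophylline libraries, ranges that overlapped.

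**Figure D5:**
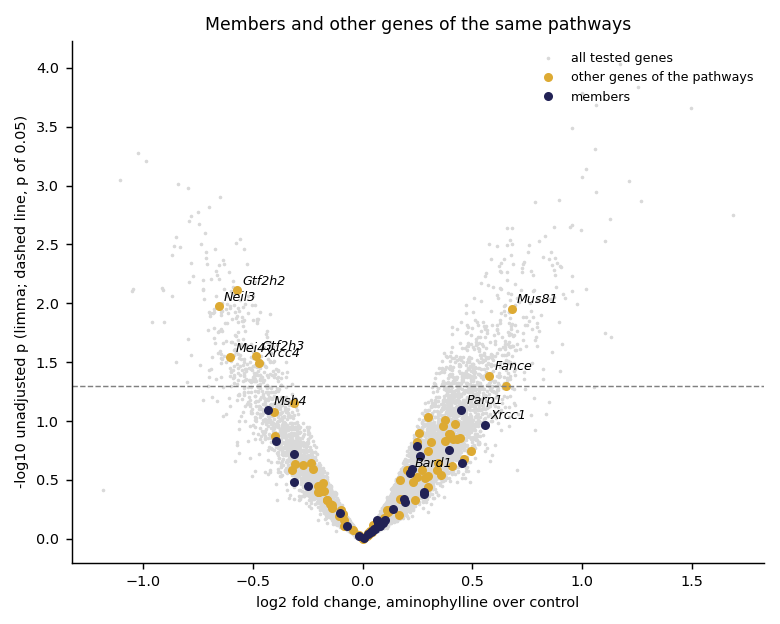
Log2 fold change (aminophylline over control) against -log10 of the unadjusted limma p for all 10340 tested genes in grey, the 86 other genes of the pathways in yellow and the 35 members in dark blue; the dashed line is the unadjusted limma threshold of 0.05. All members lie below the line, and the 7 other pathway genes above it are named.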

How the data were processed

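RNA-seq of 6 mouse oocyte libraries, 3 per group, was analysed. The deposited values were FPKM per gene, which the authors made; the submitters' processing notes name GRCm38 and mm10, and the aligner and counter are not given in the sources used here. The FPKM values came out as whole reads for 100% of the 22583 genes above 0 in 2 or more libraries (relative tolerance 1e-06), giving 14112341 to 33641283 reads per library, so a floor of 3 reads corresponds to 0.0892 to 0.213 RPM, counting error only. Genes with FPKM of at least 1 in at least 3 libraries were tested by limma 3.58.1 (R 4.3.3, two-sided, trend on mean level) on log2(FPKM + 1), with Benjamini-Hochberg adjustment over all 10340 tested genes. Fold changes on this scale understate those of low genes. Figures and tables used Python 3.11.15.

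The members and gene lists were chosen with earlier results of these data known. All 42 members are accounted for, and values per library are given for members with an unadjusted p under 0.05 or with groups that did not overlap, for the 3 most abundant and for genes that define meiotic recombination; up to 3 other pathway genes per list with an unadjusted p under 0.05 are named by smallest p. Parp1, Xrcc1, Ung and Xrcc6, and the ratios, were added after their values were seen. Library deviations correlated at 0.552 between control 3 and aminophylline 3, but only at 0.138 for the libraries numbered 1 and 0.14 for those numbered 2. Control 2 and aminophylline 1, which do not share a number, had 0.423. These values do not establish pairs by replicate number. The fit with the replicate number as a block is therefore an alternative only, given where it changes a call. Alternatives were another pseudocount and filter, TPM scaling, quantile normalization, median centring, library weights, an unmoderated model, voom on recovered reads (0 genes called at an adjusted p under 0.05, 761 unadjusted), a correction for GC content and length with the block, and leaving out each library. Library correlations were 0.97 to 0.99.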

Additional observations from a re-analysis of the deposited data

How the results depend on the processing

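No member passed an adjusted p of 0.05 in limma under any of the 17 alternatives, including voom, the unmoderated model, other filters and pseudocounts and each library left out. Counts of members at an unadjusted p under 0.05, 0 higher and 0 lower in the reported fit, moved under some of them. They were 3 higher and 2 lower with library weights, 0 higher and 1 lower with median centring and with quantile normalization, 1 higher in the unmoderated model, 2 higher and 1 lower with the replicate block, and 2 higher (Lig4 and Ung) and 1 lower (Xrcc6) with the block together with a GC content and length correction. Leaving out a library gave 0 to 4 higher and 0 to 4 lower. The share of all tested genes moved too, from 7.25% to 19.4% with library weights (members 14.3%), 14.2% with the block (8.57%) and 14.8% with the block and correction (8.57%). It was 7.57% with median centring, 8.46% with quantile normalization and 6.55% in the unmoderated model, against 2.86% of members in each. With a library left out it was 3.18% to 15.6%, against 0% to 14.3% of members. The 7 other pathway genes became 19 with library weights, 13 with the replicate block, 15 with the block and the GC content and length correction, and 3 to 15 with a library left out, or 22.1%, 15.1% and 17.4% of those tested in the first 3 of these fits. The members' median log2 fold change ran from -0.03 to 0.23 with a library left out and was 0.16 with the block and GC content and length correction. Xrcc5 changed sign with median centring (-0.02) and without control 2 (-0.03 to 0.13 with a library left out). Dmc1 changed sign with library weights (-0.18), median centring (-0.04), quantile normalization (-0.08), without aminophylline 1 (-0.13) and without control 2 (-0.07), within -0.13 to 0.19 with a library left out. The causes of these moves were not tested. With 3 libraries per group and standard errors of 0.16 to 0.35 on the log2 scale, the interval carried to FPKM lay inside 1.5-fold for 4 of the 35 members.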
